A study of Mus musculus with 4 samples.

Results

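The Zscan4 cluster is a tandem array of near-identical genes on mouse chromosome 7, and its members here were the 5 genes Zscan4b, Zscan4c, Zscan4d, Zscan4e and Zscan4f, taken by name out of 49943 genes placed on the chromosomes. The members were picked with results of these same libraries in view, among them peaks at the ends of Zscan4d after Setdb1 deletion alone. All values below are therefore descriptions, and none is a test. The mark measured was H3K9me3, trimethylation of lysine 9 on histone H3, by immunoprecipitating native chromatin from muscle stem cells of the mouse kept in culture. The control culture carried the genotype label Setdb1lox/lox;Pax7GakaCreERT2 and received ethanol. The other culture, whose label reads Setdb1lox/lox;Pax7GakaCreERT3, received 4-hydroxytamoxifen, the drug that switches on the Cre recombinase and so removes the floxed gene, and the treatment lasted 72 h. Both cultures carry the floxed alleles and the Cre, which is driven by Pax7, a gene of the satellite cell lineage, and how completely Setdb1 was removed was not measured in these files. With 1 library of the mark in each condition, replicate error cannot be given for any difference, and the 2 input libraries were not analysed here. Peak positions do not measure RNA, so the labelled cell type was not checked against expressed markers.

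Zscan4 genes encode, in their full-length form, nuclear proteins with a SCAN domain and zinc fingers. In the mouse they are switched on in the embryo at the two-cell stage and, briefly, in a small fraction of cultured embryonic stem cells, where they are linked to telomere maintenance, and they are silent in most somatic cells. DUX, a homeodomain factor of the same stage, activates them. SETDB1 writes H3K9me3, often after recruitment by TRIM28, and is best known for silencing endogenous retroviruses and germline genes.

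The promoters of 4 members resemble each other closely in sequence. The choice of members did not use promoter sequences, but it took copies of the same gene family by name, so likeness comes with it. RefSeq promoters (GRCm38.p6, with the same chromosomes as mm10) were found for 4 of the 5 members, and the 250 bases before each annotated start are shown. In Zscan4d the capitals mark the motifs TATAAA and CCAAT, and in the others they mark each base that differs from the aligned Zscan4d base. Bases beyond the ends of the alignment stay in lower case. The sequences lie at chr7:11166149-11166398 on the minus strand (Zscan4d), chr7:10905051-10905300 on the minus strand (Zscan4b), chr7:11005495-11005744 on the plus strand (Zscan4c) and chr7:11397665-11397914 on the plus strand (Zscan4f).
Zscan4d: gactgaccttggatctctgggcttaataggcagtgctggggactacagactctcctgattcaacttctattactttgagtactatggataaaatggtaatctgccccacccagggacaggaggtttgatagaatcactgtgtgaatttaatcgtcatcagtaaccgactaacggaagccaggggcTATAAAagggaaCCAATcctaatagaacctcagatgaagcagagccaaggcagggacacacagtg
Zscan4b: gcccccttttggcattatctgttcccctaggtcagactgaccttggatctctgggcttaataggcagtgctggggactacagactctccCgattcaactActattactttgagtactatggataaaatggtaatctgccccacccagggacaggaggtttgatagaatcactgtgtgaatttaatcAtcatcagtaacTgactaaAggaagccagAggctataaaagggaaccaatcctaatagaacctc
Zscan4c: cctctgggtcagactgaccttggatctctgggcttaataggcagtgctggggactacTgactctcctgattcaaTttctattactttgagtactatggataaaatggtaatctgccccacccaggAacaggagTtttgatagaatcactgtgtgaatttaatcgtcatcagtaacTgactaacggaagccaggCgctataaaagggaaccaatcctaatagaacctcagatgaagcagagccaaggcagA
Zscan4f: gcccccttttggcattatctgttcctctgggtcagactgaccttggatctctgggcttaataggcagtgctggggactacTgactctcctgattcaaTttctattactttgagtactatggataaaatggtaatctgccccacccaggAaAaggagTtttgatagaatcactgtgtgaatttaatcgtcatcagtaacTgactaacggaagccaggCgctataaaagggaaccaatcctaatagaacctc
Zscan4b differs from Zscan4d at 6 of these bases, and Zscan4c and Zscan4f differ at 7 each. Over whole promoter windows of 300 bases, which add 50 bases after the start, the 6 pairs were 95.3% to 99.3% identical over 266 to 300 aligned bases with no internal gap. The closest pair was Zscan4c and Zscan4f, with 2 mismatches. Each of the 4 sequences holds TATAAA once and CCAAT once, on the strand of the gene, and neither motif overlaps the other. TATAAA on the strand of the gene was found in 7.59% of 32851 RefSeq promoters over the same 250 bases, and CCAAT in 19.1%. On either strand the shares were 12.4% and 33.8%. The sequence TATAAA starts 31 bases before the annotated start in Zscan4b and Zscan4f, 54 bases before it in Zscan4c and 65 in Zscan4d, so the annotated starts are not at the same point of the shared sequence. The 4 sequences hold 1 to 3 CG dinucleotides, against a median of 6 over all promoters, of which 37.8% hold at most 3. Short reads from stretches this alike are hard to assign to 1 copy. No peak of either list overlapped these 4 promoters. How alike the copies are under the Zscan4d peaks was not measured. How the authors treated reads that fit several places is not given in the sources used here, and the part of such reads in the differences between copies was not tested.

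Among the 5 members, only Zscan4d was covered by more than a trace of H3K9me3 peaks, and only in the deleted list. Coverage is the percent of bases in the gene plus 5 kb on both sides that lie in peaks. Zscan4d (chr7:11161643-11166148) was covered at 0% in control cells and 38.6% in deleted cells, where 3 peaks took up 5597 of 14506 bases. Zscan4e (chr7:11306369-11310682) held 1 control peak of 289 bases, which gave 2.02%, and 0% in deleted cells. Zscan4b (chr7:10900740-10905050), Zscan4c (chr7:11005745-11010547) and Zscan4f (chr7:11397915-11402318) lacked peaks in both conditions. The mean over the 5 members was 0.404% and 7.72%, and the median difference was 0 points, so the mean difference of 7.31 points was set by Zscan4d, with Zscan4e in the other direction. All members were chosen as protein-coding genes, but the RefSeq table of this assembly lists Zscan4e as a pseudogene and the other 4 as protein-coding.

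**Figure D1:**
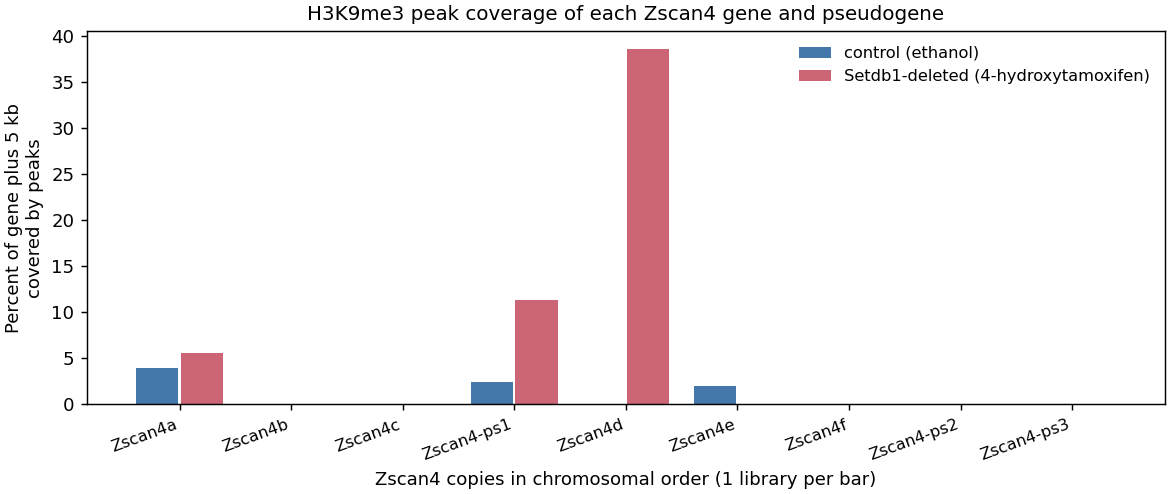
Percent of each Zscan4 gene or pseudogene plus 5 kb covered by H3K9me3 peaks, in chromosomal order, with 1 library per bar and no error bars. Zscan4d stands at 0% and 38.6%, and no other copy passes 11.4%.

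Of the 5 members, 1 (Zscan4d) had peaks in deleted cells alone, against 6.41% of protein-coding genes, and 1 (Zscan4e) in control cells alone, against 5.39%. Likewise, 1 of 5 members covered more by over 10 percentage points in the deleted list is set beside 522 of 21887 protein-coding genes (2.38%), or 7.24% of those on chromosome 7. No member was covered less by as much, against 2.52% of protein-coding genes. A window with no peak in either list was the usual state, found for 64.6% of protein-coding genes and for 3 of the 5 members. The difference at Zscan4d ranked 25 among windows covered more in deleted cells, a size reached by 0.114% of protein-coding genes. These shares are given as scale only, since Zscan4d was chosen on this contrast.

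The 3 deleted-list peaks around Zscan4d lay beyond the 3′ end, in the gene and upstream of the start. The gene is on the minus strand with its start at 11166148. The peak in the gene, chr7:11163127-11165848, was 2722 bp wide and filled 60.4% of the gene body, ending 300 bases inside the start. The upstream peak, chr7:11167414-11168412, began 1.27 kb before the start and was 999 bp wide. The third, chr7:11157720-11159595, lay 2.05 kb beyond the 3′ end and was 1876 bp wide. The promoter window of 300 bases fell between peaks. No promoter of the 4 members with a RefSeq promoter was overlapped in either list, while 1.75% of all RefSeq promoter windows were overlapped by a control peak and 1.93% by a deleted-list peak.

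Within the deleted list, the Zscan4d peaks in the gene and beyond its 3′ end were above the median in fold and in confidence, and the upstream peak was below it. The authors' fold enrichment, the signal of a peak over the peak caller's background, was 2.70 for the peak in the gene, 2.72 for the 3′ peak and 2.48 for the upstream peak, and 30.7%, 27.0% and 73.5% of deleted-list peaks had a fold at least as high. Their −log10 q values, a measure of confidence after correction for many peaks, were 1.50, 1.71 and 1.18, and 46.3%, 25.8% and 91.1% of deleted-list peaks reached those values. At a −log10 q of 2 or more, which 11.5% of deleted-list peaks reach, none of them remained and Zscan4d stood at 0% in both lists. The peak in the gene was wide for its list, where 7.58% of peaks were at least as wide.

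**Figure D2:**
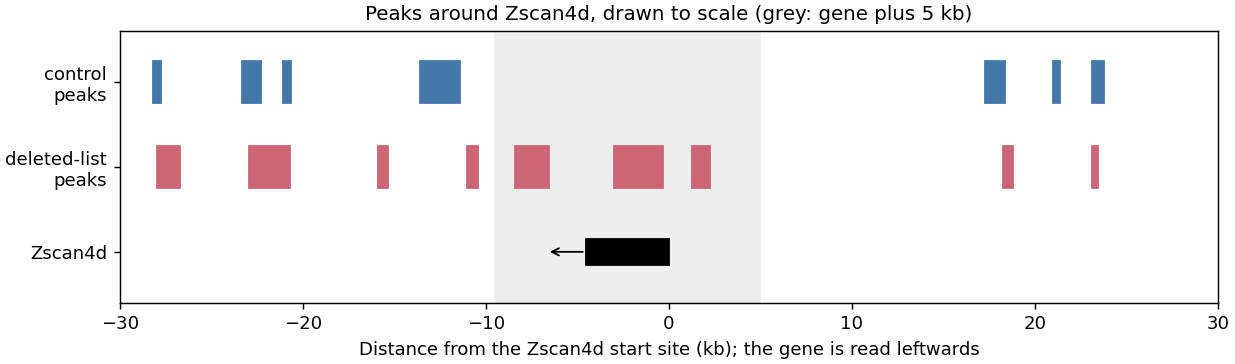
H3K9me3 peaks within 30 kb of the Zscan4d start site, drawn to scale, with distance in kb on the horizontal axis, control peaks above, deleted-list peaks in the middle and the gene below. Deleted-list peaks fall in the grey window of the gene plus 5 kb, and the control list has none there.

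In the control list Zscan4d sat in a gap between peaks rather than in a region without the mark. The gap ran from 11154721 to 11183411, a length of 28.7 kb. On chromosome 7, 769 of the 6398 gaps between control peaks were at least as long, a count of gaps and not of bases. The left border of the Zscan4d gap was a control peak of 2181 bp, chr7:11152540-11154720. That peak ended 6.92 kb from the gene and just outside the window. With 10 kb on both sides of the gene that peak entered the window, and Zscan4d reached 8.90% in control cells and 25.2% in deleted cells. No deleted-list peak overlapped that control peak. The nearest one lay 423 bases away.

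The other members were far from peaks in both lists, except Zscan4e in the control list. The gene-to-peak distance for Zscan4b was 110.9 kb in the control list and 20.2 kb in the deleted list. For Zscan4c it was 22.5 kb and 21.6 kb, and for Zscan4f it was 43.5 kb and 57.9 kb. For Zscan4e it was 2.27 kb in the control list and 70.7 kb in the deleted list. The control list thus had its longest peak-free stretch of the cluster over Zscan4a, Zscan4b and Zscan4c, 243.2 kb from 10789832 to 11033000, a length reached by 1.50% of its gaps on chromosome 7. The deleted list had its longest one over Zscan4e and Zscan4f, 224.5 kb from 11235698 to 11460235, reached by 1.25% of its 7778 gaps. Its stretch over Zscan4b and Zscan4c measured 151.6 kb. These shares count gaps of any length alike. They do not give the share of the chromosome that lies in gaps this long, which was not measured.

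The 4 pseudogene copies that flank or interrupt the members were not chosen by the rule. Zscan4-ps1, between Zscan4c and Zscan4d, had 2.43% coverage in control and 11.4% in deleted cells, each from 1 peak beside the gene and none in its body. Zscan4a, to the left of the cluster, was covered at 3.99% and 5.59%. Zscan4-ps2 and Zscan4-ps3, to the right, lacked peaks under both treatments. Of all 9 copies, 3 were higher in deleted cells, 1 was lower and 5 did not differ, being at 0% in both. For scale, 4099 of 21887 protein-coding genes were higher, 3657 lower and 14131 equal. Most of the 9 copies are listed as pseudogenes, and the same counts over all pseudogenes were not made.

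Across the whole cluster with 100 kb flanks (chr7:10800740-11502318, 701.6 kb), the deleted list had more and longer peaks than the control list. There were 20 control peaks covering 17.5 kb (2.50%) and 30 deleted-list peaks covering 32.9 kb (4.69%), a deleted-to-control ratio of 1.87. Chromosome 7 as a whole was covered at 5.50% and 6.78%, a ratio of 1.23, so the chromosome differed in the same direction. When chromosome 7 was cut into segments of the cluster's length, 12.1% of the 198 segments with control peaks had a ratio at least as high, and 23.7% of 207 differed upward by at least the cluster's 2.19 points, against 8.76% of such segments over all chromosomes. Control coverage of the cluster, 2.50%, was below the 5.50% of the whole chromosome. By rank the cluster was not low, since 58.5% of the 207 segments had control coverage at or under 2.50%. A −log10 q of 2 or more was reached by 18.8% of all control peaks and 11.5% of all deleted-list peaks. Among such peaks the order of the counts turned, with 4 control and 3 deleted-list peaks in the cluster, and the difference was 0.156 points. With the lower 50% of each list by fold left out, it was 0.722 points. From the first to the last member, coverage was 3.11% and 5.67%. In the left flank it was 0% and 1.53%, and in the right flank 1.95% and 2.91%. Read depth is unknown, and its part in the larger number of peaks was not tested.

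**Figure D3:**
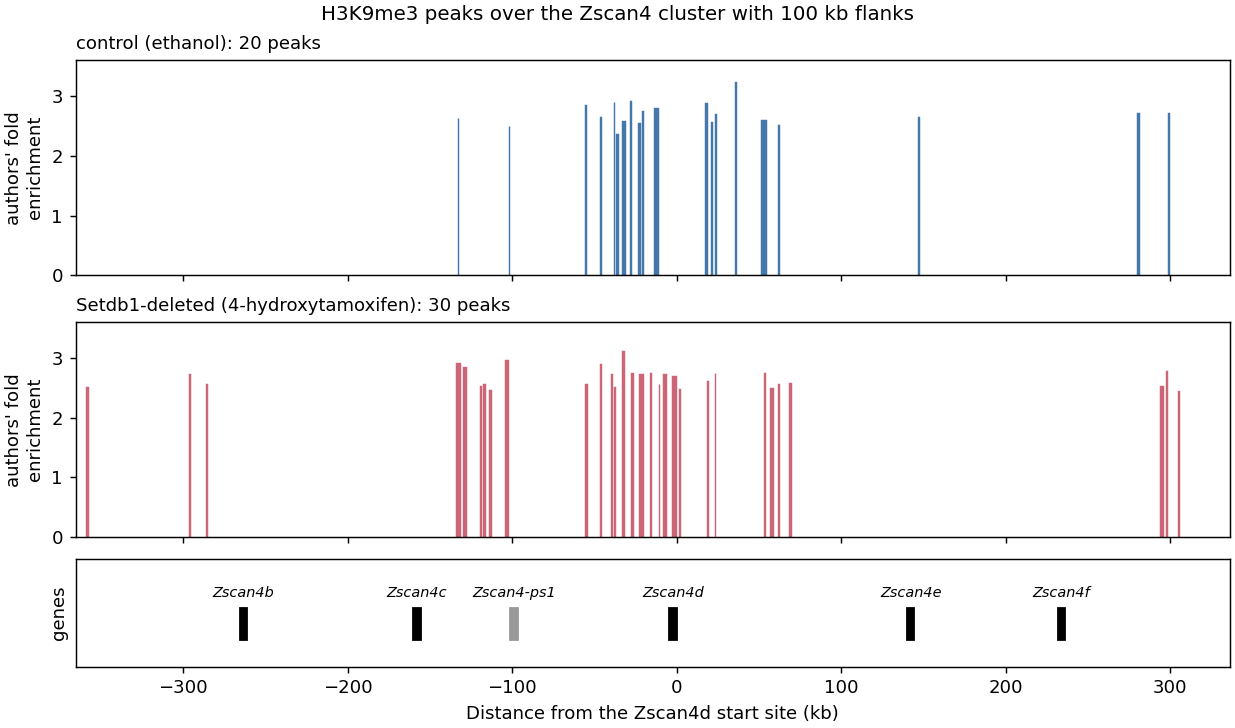
H3K9me3 peaks over the Zscan4 cluster with 100 kb flanks, with distance from the Zscan4d start site in kb on the horizontal axis and the authors' fold enrichment within each list as bar height (thin outlines keep narrow peaks visible). The 20 control and 30 deleted-list peaks gather in the middle of the cluster, and the folds are not to be compared between panels.

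Most peaks of both lists lay in the middle of the cluster, a stretch of 250 kb around Zscan4c, Zscan4-ps1 and Zscan4d that was marked off after the peaks were seen. It held 17 of the 20 control peaks and 24 of the 30 deleted-list peaks. In the 100 kb around Zscan4c and Zscan4-ps1 coverage was 0.673% for control, from 2 short peaks, and 8.97% for deleted cells, from 6. In the 150 kb around Zscan4d, 15 control peaks covered 14.6 kb and 18 deleted-list peaks 19.5 kb, a ratio of 1.33. By bins of 50 kb, the bin with Zscan4c was covered at 0.638% and 12.5%, although the Zscan4c window itself was at 0% in both lists. It was the only bin of the cluster with a difference over 10 points, against 2.64% of all 54435 bins covered more by as much and 2.83% covered less. The bin with Zscan4d was covered at 8.60% and 14.2%, and the bin to its left at 12.9% and 15.9%. The bin with Zscan4b was at 0% in both lists. The bin with Zscan4e was at 0.578% and 0%, and the second of the bins that share Zscan4f at 2.77% and 0%, from a peak outside its window.

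**Figure D4:**
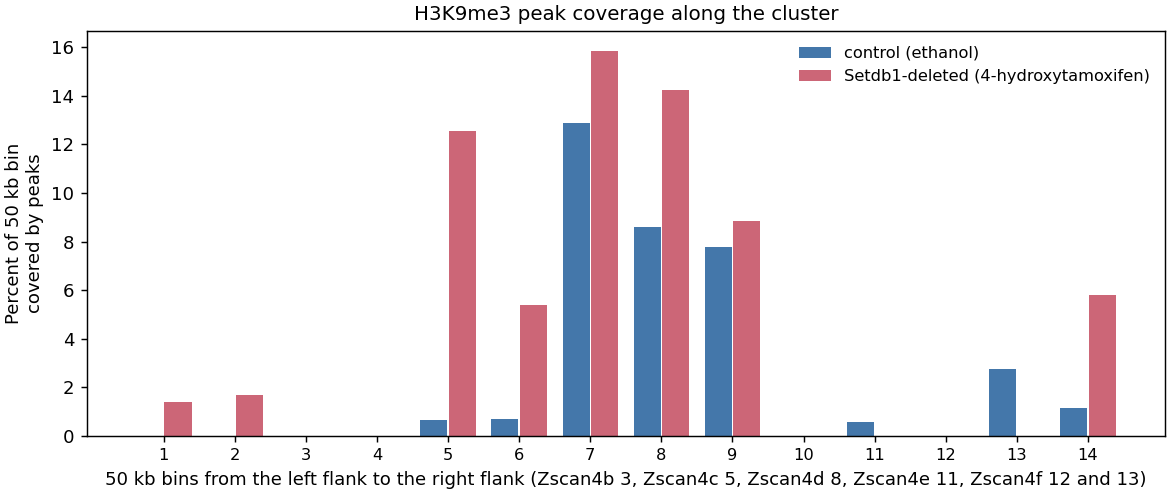
Percent of each 50 kb bin covered by H3K9me3 peaks along the cluster, from the left to the right flank, with 1 library per bar. Bins 5 and 6, with Zscan4c and Zscan4-ps1, stand at 0.638% and 0.708% in the control list and at 12.5% and 5.39% in the deleted list.

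The share of peaks found in both lists was higher in the cluster than in the whole list for control, and lower for deleted-list peaks. Of the control peaks, 12 of 20 (60.0%, exact binomial interval 36.1 to 80.9%) overlapped a deleted-list peak by at least 1 bp, against 53.0% of all control peaks. Of the deleted-list peaks, 11 of 30 (36.7%, 19.9 to 56.1%) overlapped a control peak, against 50.1% of all deleted-list peaks. The intervals cover counting error only and treat neighbouring peaks as independent. With 20 and 30 peaks they are wide, and whether the cluster differs from the whole lists was not tested. The 8 unshared control peaks included the one of highest fold in the cluster, 3.24 at chr7:11201711-11201978, 12.1 kb from the nearest deleted-list peak. The highest fold in the deleted list, 3.12 at chr7:11133003-11134255, lay wholly within a control peak. Median peak width in the cluster was 637 bp for control and 929.5 bp for deleted-list peaks, against 904 and 854 bp over the whole lists. A −log10 q of 2 or more was reached by 4 control and 3 deleted-list peaks of the cluster, against 18.8% and 11.5% of the whole lists. A value of 3 or more was reached by 0 of both.

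Besides the members, 28 other genes of RefSeq lie in the cluster with its flanks, and none of them is protein-coding. Of all 33 genes, 9 were higher in deleted cells, 6 lower and 18 equal, with a mean of 2.66% and 4.10%. Over all 21887 protein-coding genes, 4099 were higher, 3657 lower and 14131 equal. Of the 33 genes, 26 are listed as pseudogenes, and the same counts over all pseudogenes were not made. Windows of neighbouring genes can share a peak, so the 33 are not separate observations. Zscan4d and the pseudogene Gm7207 (3.14% and 16.3%) were covered more by over 10 points. The pseudogenes Gm9604 (12.7% and 0%) and Gm7839 (12.9% and 0%) were covered less by as much, and share 1 control peak. Of all protein-coding genes, 2.38% were covered more and 2.52% less by over 10 points.

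Other genes of the two-cell stage differed in both directions, and 15 of those found had peaks in both lists. Of 32 genes listed, 28 were found, with mean coverage of 9.47% and 12.6%. Of these, 13 were higher in deleted cells, 8 lower and 7 had no peak in either list, with a median difference of 0 points, as over all protein-coding genes. Of all 21887 protein-coding genes, 5175 had peaks in both lists, 4099 were higher, 3657 lower and 14130 had no peak in either list. By over 10 points, 4 of the 28 were covered more and 2 less, beside 2.38% and 2.52% of all protein-coding genes, and 7.24% covered more on chromosome 7. The largest differences upward were at Usp17lb, a deubiquitinase gene of chromosome 7, at 13.4% and 51.5%, and at Tdpoz4, a gene of the TD-POZ family on chromosome 3, at 2.98% and 22.8%. The largest downward were at Gm5039 (21.2% and 2.41%) and Gm2022 (29.4% and 17.3%), both on chromosome 12. Many of these genes are also tandem copies. With peaks limited to −log10 q of 2 or more, the list mean stood at 4.21% and 3.73%. That threshold keeps 18.8% of all control peaks and 11.5% of all deleted-list peaks.

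**Figure D5:**
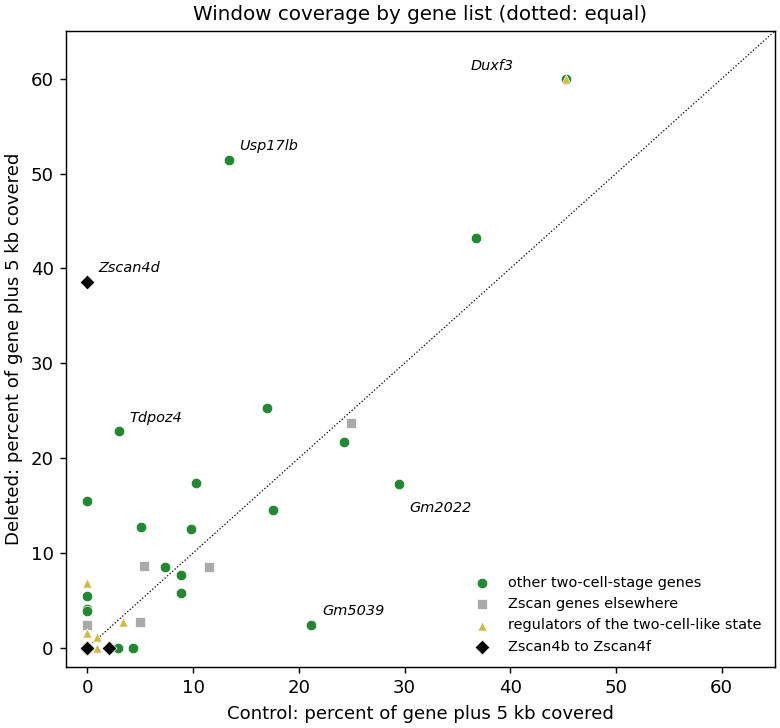
Percent of the gene plus 5 kb covered by H3K9me3 peaks in the control list (horizontal) and the deleted list (vertical), 1 point per gene, for the Zscan4 members and 3 other gene lists; Duxf3 belongs to both the two-cell-stage list and the regulators. Zscan4d lies on the vertical axis at 38.6%, Usp17lb at 13.4% and 51.5%, and the other members lie at or near 0%.

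Of 16 genes that encode known regulators of the two-cell-like state, 10 had no peak in either list, near the 64.6% of all protein-coding genes, 4 were higher in deleted cells and 2 lower. Of all 21887 protein-coding genes, 4099 were higher and 3657 lower. Duxf3, which encodes DUX, had the highest coverage of the 16 regulators, at 45.2% and 59.9%. It lies in a repeat array on chromosome 10, and the part of reads shared between copies was not tested. Zfp42, a pluripotency gene, was covered at 0% and 6.79%, and Dppa4 at 0% and 1.50%. Setdb1 itself was covered at 0.888% and 0%, which does not measure its deletion. Of 13 Zscan genes listed outside the cluster, 12 were found, with means of 3.90% and 3.82%, and 7 of them had no peak in either list. None differed by over 10 points, as for most protein-coding genes, of which 2.38% were covered more and 2.52% less by as much. Zscan5b, also on chromosome 7, was covered at 5.34% and 8.58%, and Zscan30 on chromosome 18 at 11.5% and 8.54%.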

How the data were processed

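H3K9me3 broad peaks were deposited as 1 list per condition. Per the submitters' processing notes, the tools were BWA 0.7.17-r1188, MACS2 and ChIPseeker 1.30.3 and the build was mm10. How MACS2 was set, whether inputs or pooling were used, and the read depth are not given in the sources used here. Of the deposited values, the −log10 q and the fold enrichment (a ratio on a linear scale) that the authors gave each peak were used. The replicate number in the peak names differs from the sample labels, so lists were assigned by condition. The members and gene lists were chosen with earlier results of these data known. Named genes were the members, every gene of the cluster, Setdb1, and in each list up to 2 with the largest rise and 2 with the largest fall beyond 10 points; Zfp42, Dppa4, Zscan5b and Zscan30 were added after their values were seen.

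Peaks on chromosomes 1 to 19, X and Y (105709 control, 113503 deleted) were merged and covered bases counted per window with Python 3.11.15, pandas 2.3.3 and numpy 2.4.6. The counting was checked against a base-by-base count of control peaks over gene windows of 1 chromosome. It was also checked with added peaks that filled randomly picked gene windows. Gene positions, strands and promoters came from RefSeq tables of GRCm38.p6, and promoters were aligned with Biopython 1.88. Shares carry 95% exact binomial intervals (scipy 1.17.1). With 1 library per group no test was run.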

Additional observations from a re-analysis of the deposited data

How the results depend on the processing

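Of 90 alternative values for 15 results, 56 stayed within 1.5 times the reported value, or for shared peaks within its interval, 33 moved further and 1 reversed. Zscan4b, Zscan4c and Zscan4f were at 0 points in every setting, with no peak in their windows. Their values are counted among the 56 and do not bear on stability. The 2 results that rest on Zscan4d, its own difference and the member mean, were lost with stricter peaks: with −log10 q of 2 or 3 as the lowest allowed, Zscan4d and the member mean were at 0 points and 0 members were covered more. Those thresholds leave fewer peaks, and the lower of them was reached by 18.8% of control peaks and 11.5% of deleted-list peaks. The member mean was 15.8 points with peaks joined within 5 kb, 12.1 with no flank and 3.03 with 10 kb. In all settings but those 2 thresholds, 1 member was covered more. The cluster differed by 0.156 points at −log10 q of 2 or more, 0 at 3 or more, 0.722 with peaks at or above the median fold and 6.45 with joined peaks. With the same number of peaks in both lists, the cluster difference was 2.19 points, the member mean 7.31 and Zscan4d 38.6, as in the main setting. Equal numbers of peaks do not mean equal read depth, whose part was not tested. Protein-coding genes covered more and less numbered 162 and 284 at −log10 q from 2 upward, 41 and 52 from 3 upward, and 178 and 239 at 20 points; 953 were covered more with joined peaks. Shared control and deleted-list peaks of the cluster were 30% and 16.7% when 50% of a peak had to overlap, and 85.0% and 66.7% when a peak within 5 kb counted. At −log10 q of 2 or more, chosen after seeing the data, the mean of the other two-cell-stage genes turned to -0.484 points. Causes beyond the number and length of peaks were not tested. No paired analysis was possible because there was 1 library per condition, nor could a replicate be left out. The unknown depth limits each comparison between the lists.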
